A study of Mus musculus with 9 samples.

Results

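The electron transport chain and the ATP synthase are the membrane machinery with which mitochondria turn the oxidation of food into ATP. Complex I takes electrons from NADH and complex II from succinate, complex III passes them to cytochrome c, complex IV hands them to oxygen, and the ATP synthase (complex V) uses the resulting proton gradient to make ATP. Marrow stromal cells that mature into bone-forming or fat-storing cells are known to lean more on this machinery than the undifferentiated cells do. The genes described here are its nuclear-encoded subunits, chosen by gene name: every entry named Nduf (without the assembly factors Ndufaf), Sdha to Sdhd, Uqcr, Cox with a number from 4 to 8 and at most 1 letter and further digits, or Atp5. The names gave 82 genes of 23358 entries in the deposited count table, with 38 in complex I, 4 in complex II, 8 in complex III, 15 in complex IV and 17 in complex V. The family was proposed after results of these same comparisons were known, so the counts below describe it and are not independent support for its direction.

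Mouse mesenchymal stem cells (MSCs) from adult C57BL/6 marrow, at passages 4 to 10, were plated and 1 day later received siRNA with or without inhibitor. They were then kept in osteogenic medium with ascorbic acid and β-glycerophosphate until lysis at day 4. The control group (siCTL) had non-targeting siRNA, the GSK126 group had non-targeting siRNA and 5 µM GSK126, a small molecule that inhibits the histone methyltransferase Ezh2, and the siBcat group had siRNA against β-catenin. The labels disagree on the siBcat group: titles and table columns say that it had no inhibitor, while its treatment label lists 5 µM GSK126. Each group had 3 libraries that the series calls biological replicates, without saying whether they came from separate animals or cultures, so p-values measure the spread between these libraries.

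The libraries held 42324200 to 55898774 summed counts, and all counts were even. Ctnnb1, which encodes β-catenin, was at 854.4 to 878.9 CPM (counts scaled by library size) in siCTL and at 19.1 to 19.3 in siBcat, 44.9-fold lower (edgeR, adjusted p = 1.13e-15). The message of Ezh2, at 23.1 to 24.4 CPM in siCTL and 26.0 to 29.3 in GSK126, is no check of an enzyme inhibitor. GSK126 replicate 3 stood apart from the other libraries. A trend with gene length took 21.4% of the variance of its deviations from the group mean, against 7.03% and 9.24% in the other GSK126 libraries and 0.0531 to 0.69% in siCTL and siBcat. For siCTL replicate 3 it was a trend with GC content, at 11.9% of the variance against 0.575 to 5.6% in the other libraries. The length figures are taken within groups, so a length trend between groups does not show in them. The subunit genes are short: their median length in the table's CodingLength column was 679 bases, against 2851 for all genes tested, and 68.8% of them against 7.32% of all genes had at most 1000 bases. Family and complex counts are therefore also given without GSK126 replicate 3 and after removal of the length trend.

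As markers of the labelled cell type, Col1a1 was at 8871 and Col1a2 at 15380 CPM in siCTL, while Thy1 was listed at 0 in every group. Of the haematopoietic markers, Ptprc was at 0 in every group, and the summed level of the list was 2.66 to 3.56 CPM over all libraries. In bulk RNA, fewer cells of a type and less RNA per cell cannot be told apart.

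Promoters of the family were searched for short motifs of factors known to control respiratory genes, on both strands, in RefSeq windows (GRCm38.p6) from 250 bases before to 50 bases after the start. Entries were found for 66 of the 82 genes. The nuclear respiratory factor 1 motif, whose matches on the 2 strands can overlap and whose letters are the capitals in Ndufa8 and Cox6a1 below, was in 17 of the 66 (25.8%), against 5.19% of 27025 genes with an entry. The YY1 motif was in 5 (7.58%, against 0.995% of all), the ETS motif CCGGAAGT read by GABP in 5 (7.58%, against 4.31%), and the ERR motif TCAAGGTCA in 2 (3.03%, against 0.466%). A match is a description of the letters and not a bound site. The 4 windows below, of 180 bases before and 20 after the start, are shown because their genes were called against siCTL in all alternatives run and hold a motif there. Of 15 genes with such calls, 12 had an entry, and only these 4 held a motif in that window. A link between motif and call was not tested. All lie on the minus strand and are written 5′ to 3′ in the direction of transcription, with the motif in capitals: Ndufa8 at chr2:36049319-36049518 and Cox6a1 at chr5:115348939-115349138 (nuclear respiratory factor 1), Atp5g3 at chr2:73911307-73911506 (ERR), and Cox8a at chr19:7217597-7217796 (ETS, across the start).
Ndufa8: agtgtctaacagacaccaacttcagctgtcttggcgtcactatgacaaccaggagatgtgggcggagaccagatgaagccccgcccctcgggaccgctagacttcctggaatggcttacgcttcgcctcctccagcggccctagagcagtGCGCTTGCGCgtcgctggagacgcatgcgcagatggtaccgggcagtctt
Cox6a1: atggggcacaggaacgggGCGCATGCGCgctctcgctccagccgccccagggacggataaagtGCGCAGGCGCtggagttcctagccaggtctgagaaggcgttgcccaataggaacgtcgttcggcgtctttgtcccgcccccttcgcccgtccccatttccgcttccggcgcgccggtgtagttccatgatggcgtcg
Atp5g3: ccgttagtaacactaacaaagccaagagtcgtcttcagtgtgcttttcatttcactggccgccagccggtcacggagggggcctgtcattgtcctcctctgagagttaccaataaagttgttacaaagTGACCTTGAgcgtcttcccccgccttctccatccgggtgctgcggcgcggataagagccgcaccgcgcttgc
Cox8a: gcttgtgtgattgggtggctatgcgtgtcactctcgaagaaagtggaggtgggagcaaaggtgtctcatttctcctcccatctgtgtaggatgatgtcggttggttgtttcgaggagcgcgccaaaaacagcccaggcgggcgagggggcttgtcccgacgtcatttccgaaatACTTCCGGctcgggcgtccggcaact

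In control cells the levels per length ran over several orders. Atp5b, the catalytic β subunit of the ATP synthase, had the highest level in the family at 458.6 ± 7.21 RPKM (the authors' read count scaled by gene length and library total, SD, n = 3), followed by Ndufa4 at 346.9 ± 10.5 and Atp5g3, a c-ring subunit, at 336.8 ± 18.9. Atp5g3 and Ndufa4 do not differ beyond their spread. In complex II, Sdhc, a membrane anchor, was highest at 104.7 ± 0.783 RPKM and Sdhb, the iron-sulphur subunit, lowest at 56.1 ± 1.98. In complex III, Uqcrh, the hinge protein, was highest at 162.3 ± 7.09 RPKM and Uqcrfs1, the Rieske iron-sulphur protein, lowest at 40.1 ± 0.308. In complex IV, Cox6c was highest at 184.5 ± 8.70 RPKM, close to Cox8a at 182.9 ± 4.28 and Cox6a1 at 179.2 ± 15.4, which do not differ beyond their spread. The members named for tissue isoforms were near 0: Cox6a2, the muscle form of Cox6a1, at 0.0401 ± 0.0348 RPKM, and Cox6b2, the testis form of Cox6b1, at 0.504 ± 0.0764. Cox6b1 itself was at 171.1 ± 10.4 RPKM.

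**Figure D1:**
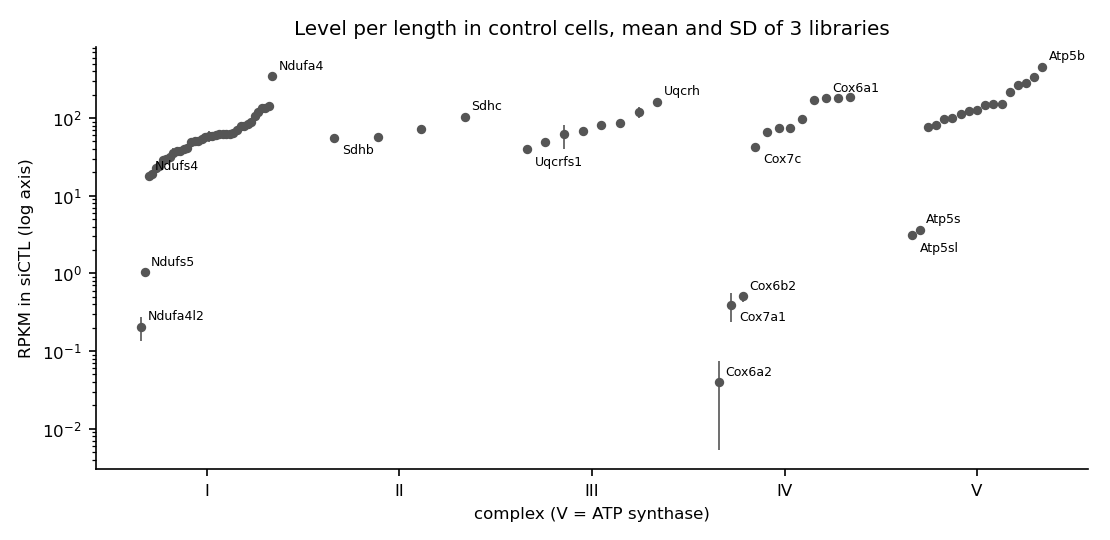
Level per length in siCTL (RPKM, log axis) of each subunit gene by complex, mean and SD of 3 libraries. Genes with 0 counts (Cox7b2, Cox8b and Cox8c) are not drawn; most genes lie between 10 and 1000 RPKM, and the tissue isoforms and Ndufs5 lie below 10.

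A filter on low counts left 77 of the 82 genes to test. Cox7b2, Cox8b and Cox8c, isoforms of other tissues, had 0 counts in all 9 libraries. A floor of 3 counts over the siCTL libraries is 0.0219 CPM. As all counts were even, the level that 0 counts allow is higher if they are read pairs. Ndufa4l2 (30 counts summed over siCTL, 6 over GSK126 and 22 over siBcat) and Cox7a1, the muscle form of Cox7a2 (22, 16 and 22 counts), were also left out. Cox7a2, the general form, was at 66.7 ± 2.12 RPKM and Cox7b at 74.96 ± 2.00 RPKM in siCTL. Ndufs5, an accessory subunit of complex I, had only 80, 130 and 138 counts summed over siCTL, GSK126 and siBcat. The deposited table has another entry, BC002163, over 99.5% of its span, so the count of Ndufs5 is not a measure of its level. Ndufa4 and Ndufa4l2 are named for complex I and counted there here, although the Ndufa4 protein is now assigned to complex IV.

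With GSK126, 36 of the 77 subunit genes rose against siCTL and 0 fell (edgeR quasi-likelihood test, adjusted p under 0.05), where 25% of all 13240 genes tested were called, 14.3% higher and 10.7% lower. The median log2 fold change was 0.24, against 0.01 over all genes, and 76 of 77 were above 0. Changes were small, below 0.7 on the log2 scale in every gene but Cox6b2 and Cox6a2. For 61 of 77 genes all 3 GSK126 libraries lay above all 3 siCTL libraries, and for 0 below (all genes, 21.9% and 20.2%). As a share of all counts, the family took 0.72 to 0.731% of counts in siCTL and 0.809%, 0.803% and 0.984% in GSK126. The plot of medians by library shows the same order: the family's median difference from the siCTL mean was 0.14, 0.14 and 0.45 (log2 CPM) in GSK126 replicates 1, 2 and 3. Without GSK126 replicate 3, 28 genes were higher and 1 lower, with a median of 0.13 (all genes, 15.2% and 13.6%). With the length trend removed, 18 were higher and 1 lower, with a median of 0.094 (all genes, 15.5% and 13.6%). With both, chosen after seeing the data, 12 were higher and 2 lower, with a median of 0.072 (all genes, 14.6% and 13.7%). Leaving out 1 library at a time, calls in all fell to 21, 17 and 18 without siCTL replicates 1, 2 and 3. Over all genes the shares called also fell, to 11.6%, 9.96% and 10.3% higher and 7.57%, 7.41% and 7.37% lower. Calls were 23 and 22 without siBcat replicates 1 and 3 (all genes, 12.2% and 12.3% higher, 9.94% and 8.94% lower). In a fit of these 2 groups alone 14 were higher (all genes, 10.7% higher and 8.35% lower). With the GC trend removed, also chosen after seeing the data, 31 were higher (all genes, 15% and 13.9%). The calls of 11 genes held in all 21 alternatives: Ndufa12, Ndufb6, Ndufb8, Ndufb9, Ndufs4, Ndufs8, Cox5b, Cox6a1, Cox8a, Atp5g1 and Atp5g3.

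**Figure D2:**
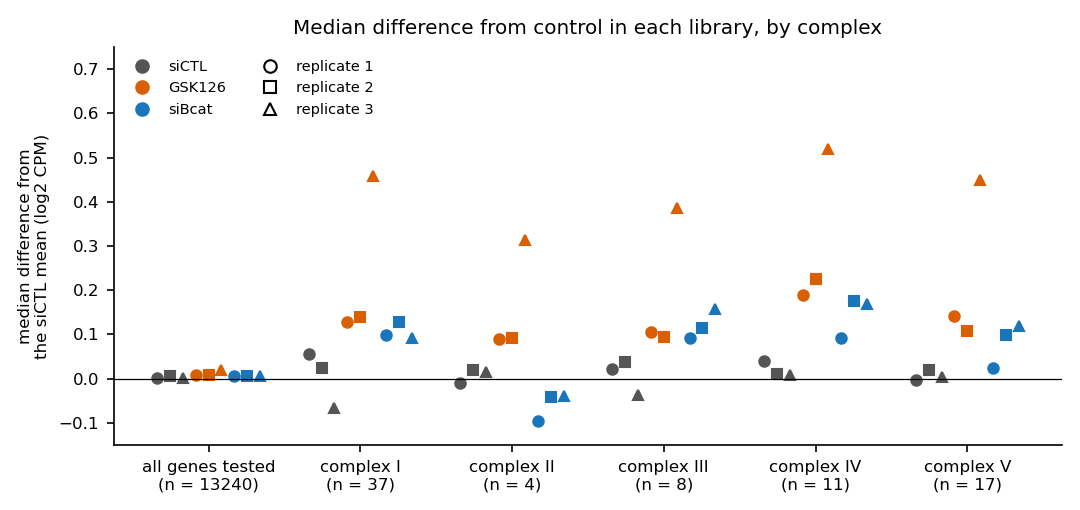
Median difference from the siCTL mean (log2 CPM) over all genes tested and over the subunit genes of each complex (numbers in brackets), 1 point per library, with colours for groups and shapes for replicates. GSK126 replicate 3 is the highest point in every complex (0.31 in complex II to 0.52 in complex IV), while over all genes every library is within 0.02 of 0.

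Over all genes tested, the median difference with GSK126 was also above 0 in each range of short lengths. Among the 252 genes of at most 600 bases the median log2 fold change was 0.14, with 15.5% called higher and 1.19% lower, against 0.27 for the 32 subunit genes of that length. For lengths over 600 and up to 1000 bases it was 0.13 against 0.31 (21 subunit genes), and for lengths over 1000 and up to 2000 bases 0.096 against 0.17 (19 subunit genes). The subunit median was above that of all genes in each range. Without replicate 3 the first 2 ranges gave 0.049 against 0.15 and 0.039 against 0.19.

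**Figure D3:**
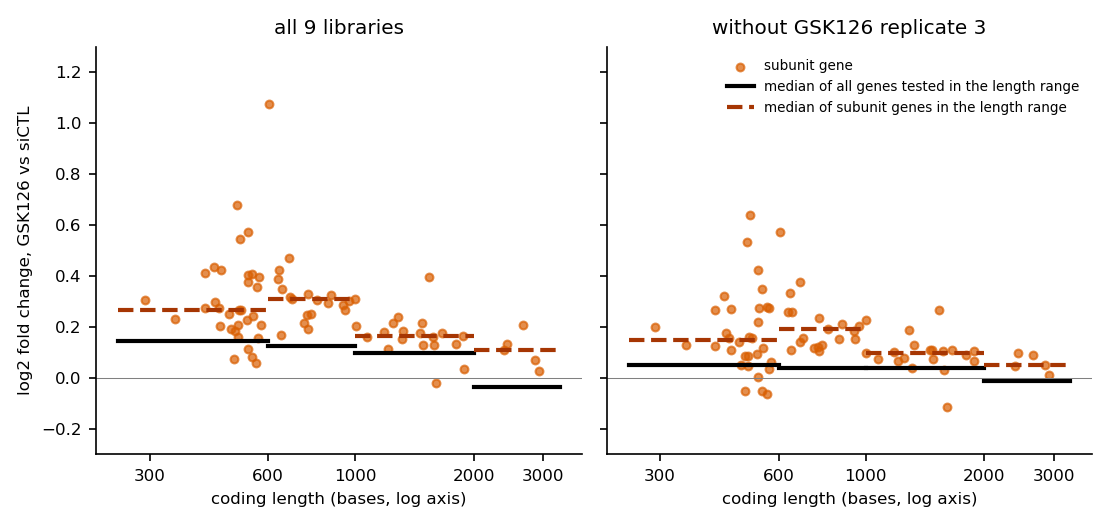
Log2 fold change of each subunit gene in GSK126 against siCTL by length (bases, log axis), with all 9 libraries and without GSK126 replicate 3. Solid lines are medians of all genes tested in a length range and dashed lines those of subunit genes, which lie above them; Cox6a2 is not drawn.

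Markers of fat cells moved in opposite directions in the 2 treatments. All 5 rose with GSK126, Adipoq from 3.15 to 25.6 and Plin1 from 0.846 to 19.0 CPM (means of 3), and 4 of 5 fell with β-catenin siRNA. Their summed level was 1790 to 1864 CPM in siCTL, 2215 to 2419 in GSK126 and 1139 to 1214 in siBcat. Of the brown fat markers, Ucp1 and Cidea were at 0 in siCTL and GSK126. Dio2, the brown fat marker that was tested, was low at 0.226, 0.220 and 0.170 CPM in siCTL. With GSK126 it was at 0.495, 0.413 and 0.349 CPM, above all siCTL libraries but not called (edgeR adjusted p = 0.0753). Acta1, the muscle marker that was tested, rose in both, while Ckm, Myh4 and Myog were at or near 0. Their part in the differences of the subunit genes was not tested.

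In complex I, 16 of 37 genes rose with GSK126 and 0 fell (median 0.23), 3 of 7 core subunits and 13 of 29 accessory ones. Ndufb9, an accessory subunit of the membrane arm, was at 103.9, 107 and 101 CPM in siCTL and 127, 123 and 148 in GSK126. Its groups did not overlap, and the difference was 0.35 ± 0.066 on the log2 scale (SE, edgeR adjusted p = 0.0022). It was 0.26 without replicate 3 and 0.19 with the length trend removed, still called in both. Of its 50-base sequences 23.4% also occur in Gm49356, which overlaps it on the same strand, so the level of Ndufb9 is uncertain to that extent. Ndufb8 was at 80.9, 76.9 and 65.5 CPM in siCTL and 95.1, 92.4 and 112 in GSK126 (0.42 ± 0.084, edgeR adjusted p = 0.00301). Ndufs4, a subunit whose loss causes Leigh syndrome, was at 29.9, 29.1 and 31.5 CPM against 36.6, 36.0 and 46.5 (0.40 ± 0.089, edgeR adjusted p = 0.00631). Ndufb6 was at 32.4, 30.5 and 27.4 CPM against 37.2, 35.6 and 46.5 (0.40 ± 0.095, edgeR adjusted p = 0.00852). In all 3 genes each GSK126 library was above each siCTL library, and the strand setting of the counting is not given in the sources used here, so Ndufb6, of whose 50-base sequences 31.6% also occur in the opposite-strand gene Smim27, is uncertain. Without replicate 3, 11 complex I genes were higher and 1 lower, and with the length trend removed 10 and 1.

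Complex II showed 1 call of 4. Sdhd, a membrane anchor subunit, was at 77.4, 83.5 and 84.1 CPM in siCTL and 95.3, 91.0 and 103 in GSK126. The difference of 0.24 ± 0.063 (edgeR adjusted p = 0.015) remained called without replicate 3, where it was 0.19, but not without siCTL replicate 1 (edgeR adjusted p = 0.074) or with the length trend removed (edgeR adjusted p = 0.0753). Sdhc missed the threshold at 0.18 ± 0.062 (edgeR adjusted p = 0.0522), and Sdhb and Sdha, the flavoprotein, were at 0.16 and 0.069.

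In complex III, 2 of 8 genes rose, both small subunits. Uqcr10 differed by 0.30 ± 0.084 (edgeR adjusted p = 0.0205) and Uqcr11 by 0.43 ± 0.12 (edgeR adjusted p = 0.0287). Neither call held with the length trend removed, when the adjusted p was 0.0765 and 0.0829 in edgeR. Without GSK126 replicate 3, 1 of 8 was higher, as Uqcr11 lost its call (edgeR adjusted p = 0.182), and Uqcr10 lost it without siCTL replicate 1 or 3 (edgeR adjusted p = 0.0646 and 0.0755). Uqcrq had a wide spread within siCTL, at 45.1, 35.8 and 21.3 CPM, and a log2 difference of 0.68 ± 0.25 that missed the threshold (edgeR adjusted p = 0.0829). The siCTL replicate 3 value was the lowest of the 9.

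Of the 5 complexes as counted by name, complex IV had the largest share of calls, 7 of 11 genes and 0 lower (median 0.31). The call of Cox6a2, whose value is uncertain as given below, is 1 of the 7, and complex V had 10 of 17. Ndufa4, counted in complex I, and Cox4i1, outside the name rule, are also of complex IV and were not called (edgeR adjusted p = 0.529 and 0.0604). The ranking therefore rests on the name rule. Cox8a, a small general subunit, was at 114, 111 and 106 CPM in siCTL and 142, 139.7 and 158 in GSK126 (0.41 ± 0.072, edgeR adjusted p = 0.00123). Cox6a1, the general form of subunit 6a, was at 112, 111 and 93.9 CPM against 142, 142 and 187 (0.57 ± 0.12, edgeR adjusted p = 0.00597). Cox5b, a matrix-side subunit, was at 65.8, 63.9 and 57.0 CPM against 72.2, 78.6 and 94.7 (0.40 ± 0.091, edgeR adjusted p = 0.00742). For none of these did the groups overlap, and all 3 calls held without replicate 3 and with the length trend removed. Of the 50-base sequences of Cox5b, 21.8% also occur in Gm11273, and 12.3% of those of Cox6a1 in AC148174.2, so both are uncertain to that extent. Without replicate 3, 6 of 11 were higher, and with the length trend removed 4.

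Cox6a2 was nearly silent in siCTL. Its call with GSK126 (edgeR adjusted p = 0.0148) is counted in the 36 above and was lost without siCTL replicate 2 (edgeR adjusted p = 0.0615). The siCTL libraries held 2, 0 and 2 counts, those of GSK126 20, 24 and 16, and those of siBcat 18, 2 and 2. Taking the even counts as read pairs, GSK126 had 30 and siCTL 2, a ratio of 13.5 (95% exact interval 3.43 to 117, for counting error only). Its end overlaps Itgad on the opposite strand by 69 bases, and the counts of Itgad per library were 192, 220 and 194 for siCTL, 1092, 796 and 786 for GSK126, and 142, 234 and 184 for siBcat. Reads of Itgad and Cox6a2 cannot be told apart without strand there, and the value is uncertain. Cox6b2 differed by 1.08 ± 0.39 and missed the threshold (edgeR adjusted p = 0.063).

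In the ATP synthase, 10 of 17 genes rose with GSK126 (median 0.21): 3 of 3 c-ring genes, 2 of 5 genes of the catalytic head, 2 of 4 of the peripheral stalk and 3 of 3 small membrane subunits. The c ring is the part that turns as protons pass, and its 3 genes encode the same mature protein. Atp5g3 was at 264, 262 and 234 CPM in siCTL and 326, 331 and 396 in GSK126, which did not overlap. It had the smallest adjusted p of the family in this comparison (0.47 ± 0.074, edgeR adjusted p = 0.000574), and remained called without replicate 3 at 0.37 and with the length trend removed at 0.31. Atp5g1 was at 75.7, 76.1 and 72.6 CPM against 86.5, 86.9 and 107.8 (0.33 ± 0.078, edgeR adjusted p = 0.00881), with 11.1% of its 50-base sequences found elsewhere. Atp5g2 was at 190.7, 191 and 186 CPM against 207, 202 and 229.9 (0.17 ± 0.056, edgeR adjusted p = 0.0433), and its difference was 0.012 with the length trend removed (edgeR adjusted p = 0.868). The call of Atp5g2 was lost in 14 of the 21 alternatives. Of its 50-base sequences 38.3% occur elsewhere, and of those of Atp5l, a small membrane subunit, 84.8%, so both levels are uncertain. Atp5k and Atp5l, membrane subunits, rose by 0.30 ± 0.077 (edgeR adjusted p = 0.012) and 0.27 ± 0.074 (edgeR adjusted p = 0.019), but neither was called with the length trend removed, nor Atp5l without siCTL replicate 1 or 2 (edgeR adjusted p = 0.0625 and 0.0762). Without replicate 3, 9 of 17 were higher and with the length trend removed 4.

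**Figure D4:**
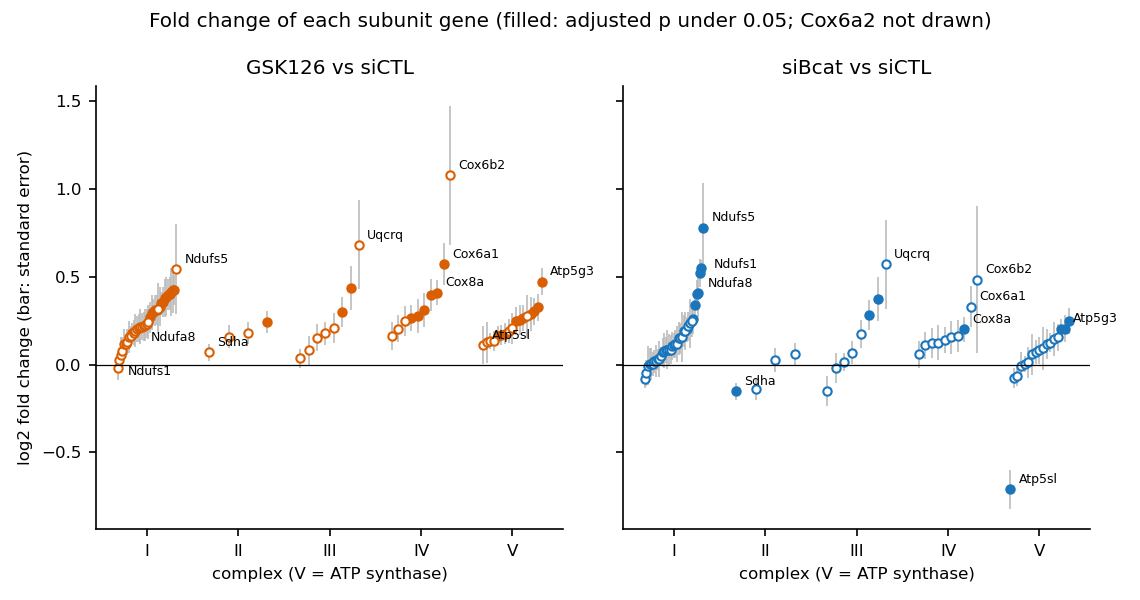
Log2 fold change of each subunit gene tested, by complex, against siCTL in GSK126 (left) and siBcat (right), with standard errors; filled points have an adjusted p under 0.05. Most points on the left lie above 0, and Atp5sl is the lowest on the right; Cox6a2 is not drawn.

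With β-catenin siRNA, 14 of 77 genes rose and 2 fell (edgeR, adjusted p under 0.05), where 35.2% of all genes were called, 17.7% higher and 17.5% lower. The share of subunit genes that rose is near that of all genes. The median log2 fold change was 0.11 and 66 of 77 were above 0. Over all genes tested, the median was also above 0 for short lengths. For at most 600 bases it was 0.19, against 0.15 for the 32 subunit genes of that length. Over 600 and up to 1000 bases it was 0.093 against 0.12, and over 1000 and up to 2000 bases 0.049 against 0.059. For longer genes it was -0.025 against 0.0015 (5 subunit genes). For 34 genes all siBcat libraries lay above all siCTL libraries and for 6 below (all genes, 28% and 27.2%). Without GSK126 replicate 3, which changes the shared estimate of spread, 30 were higher and 4 lower (all genes, 23.9% and 23.3%), and with the length trend removed 11 and 9, with a median of 0.0096 (all genes, 21.9% and 20.2%). Calls numbered 10, 9 and 7 without siCTL replicates 1, 2 and 3 (all genes, 14.8%, 12.6% and 14.6% higher, 14.3%, 14.3% and 15.4% lower). They numbered 10, 5 and 8 without siBcat replicates 1, 2 and 3 (all genes, 12.9%, 13.4% and 13.6% higher, 14.6%, 13.6% and 13.5% lower).

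In complex I, 8 of 37 rose with β-catenin siRNA and 0 fell. Without GSK126 replicate 3 it was 16 and 0, and with the length trend removed 6 and 2. Ndufs1, the largest core subunit of complex I and a carrier of its iron-sulphur clusters, was at 72.4, 69.8 and 75.8 CPM in siCTL and 106, 105 and 107 in siBcat (0.55 ± 0.049, edgeR adjusted p = 3.13e-06). In GSK126 it was at 72.9, 73.6 and 75.3 CPM (0.025 ± 0.049, edgeR adjusted p = 0.742), within the range of siCTL. Ndufs1 lies at chr1:63143596-63176833 in GENCODE M21 and overlaps exons of the opposite-strand genes Ino80dos and Eef1b2, with 4.8% of its 50-base sequences found in Ino80dos. Ndufa8, an accessory subunit, was at 53.8, 52.9 and 48.2 CPM in siCTL. Its levels were 57.7, 54.3 and 67.8 CPM with GSK126, and 74.9, 74.9 and 72.3 with β-catenin siRNA. The siBcat libraries were above all others (0.52 ± 0.077 against siCTL, edgeR adjusted p = 0.00021). Ndufa12 rose by 0.40 ± 0.084 (edgeR adjusted p = 0.00274) and Ndufa3 by 0.34 ± 0.080 (edgeR adjusted p = 0.00573). For Ndufa12, of whose 50-base sequences 26.2% occur in Gm15920, the difference with GSK126 was 0.36 ± 0.084. The calls of Ndufs1, Ndufa8, Ndufa3 and Ndufa12 held in all 21 alternatives. Ndufs5 was also called (0.78 ± 0.25, edgeR adjusted p = 0.0297), with the reservation on its count given above, and lost its call in 7 of 20 alternatives.

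In the other complexes, 1 of 4 complex II genes fell, 2 of 8 rose in complex III and 1 of 11 in complex IV, and in complex V 3 of 17 rose and 1 fell. Without GSK126 replicate 3, 7 of 11 complex IV genes and 5 of 17 complex V genes were higher. With the length trend removed it was 1 and 3, and 3 complex V genes were lower. In complex II, 0 were higher and 2 lower in either setting. In complex III, 2 were higher and 1 lower without replicate 3, and 1 and 2 with the length trend removed. Sdha fell, at 223, 223 and 232 CPM in siCTL and 202, 199 and 210.2 in siBcat, by 0.15 on the log2 scale (edgeR adjusted p = 0.023). The groups did not overlap, but the call was lost without siCTL replicate 3 and without siBcat replicate 1 or 2, with adjusted p of 0.0682, 0.0614 and 0.089 in edgeR. Uqcr10 and Uqcr11 rose by 0.28 ± 0.084 and 0.37 ± 0.12 (edgeR adjusted p = 0.0196 and 0.0399), and Cox8a by 0.20 ± 0.072 (edgeR adjusted p = 0.0466). These calls were lost in 6, 10 and 12 of the 21 alternatives. With the length trend removed, Uqcr11 and Cox8a had an adjusted p of 0.0959 and 0.295 in edgeR, and without GSK126 replicate 3 that of Uqcr11 was 0.0708. Uqcr10, Uqcr11 and Cox8a each lost the call without siCTL replicate 3 or siBcat replicate 2 or 3. In the ATP synthase Atp5f1, a peripheral stalk subunit, Atp5l and Atp5g3 rose by 0.20 ± 0.058, 0.25 ± 0.074 and 0.20 ± 0.074 (edgeR adjusted p = 0.0162, 0.019 and 0.0483). Their calls were lost in 4, 5 and 10 of the 21 alternatives, all 3 without siCTL replicate 2, siBcat replicate 2 or siBcat replicate 3, and that of Atp5g3 also with the length trend removed (edgeR adjusted p = 0.0713). Of the 50-base sequences of Atp5f1, 37.6% occur in other genes, among them Gm12231, so its level is uncertain. Atp5sl, counted in complex V only by its name as a relative of factor B of the ATP synthase, was at 7.47, 8.77 and 8.40 CPM in siCTL. Its levels were 9.08, 7.86 and 9.62 CPM with GSK126, and 5.21, 5.26 and 4.60 with β-catenin siRNA, below all others. It fell by 0.71 on the log2 scale against siCTL (edgeR adjusted p = 0.000332), the largest fall in the family, and the call held in all 20 alternatives that tested it. Its relative Atp5s differed by 0.059 (edgeR adjusted p = 0.732).

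**Figure D5:**
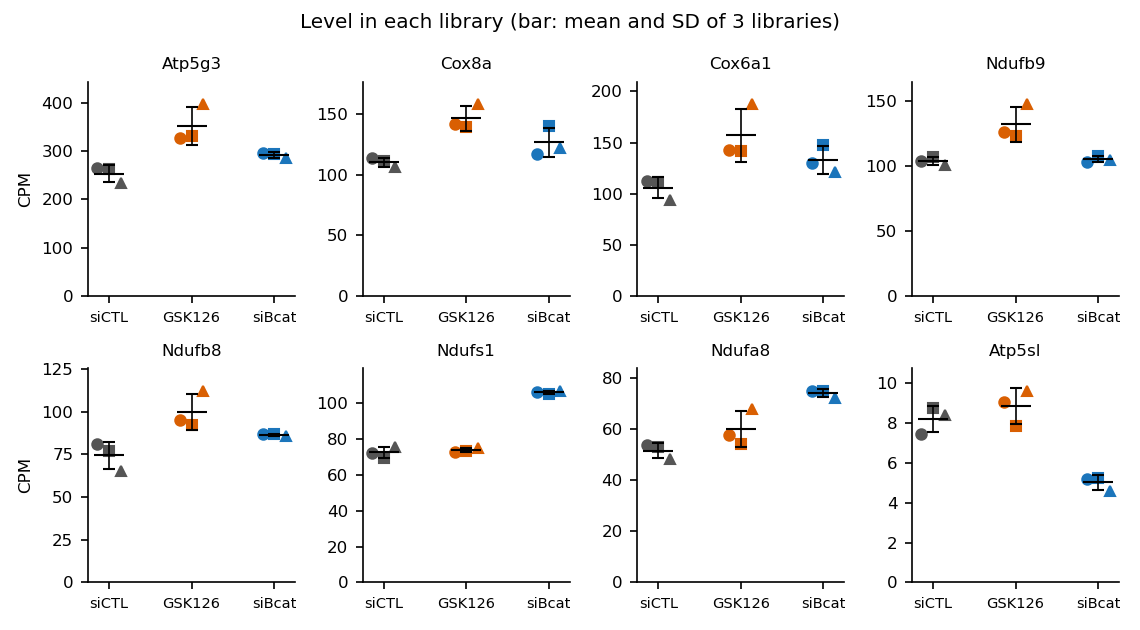
CPM in each library of 8 genes of the family that were called in 1 or both comparisons and in all alternatives of at least 1, with the mean and SD of 3 libraries (bars). Ndufs1, Ndufa8 and Atp5sl set siBcat apart from siCTL, while Atp5g3, Cox8a, Cox6a1, Ndufb9 and Ndufb8 are higher in GSK126, with replicate 3 the highest of that group.

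Between the treatments, siBcat was higher than GSK126 for 2 genes (Ndufs1 and Ndufa8) and lower for 17 (edgeR, adjusted p under 0.05; all genes, 41.2%, of which 19.3% higher and 21.9% lower), with a median of -0.14. This comparison shares GSK126 with the one against siCTL. Without GSK126 replicate 3 it was 6 and 14, with a median of -0.032 (all genes, 22.9% and 24.3%). With the length trend removed it was 2 and 23, with a median of -0.090 (all genes, 24.2% and 24%). In complex II, Sdhc was at 146, 148 and 170.2 CPM with GSK126 and at 119, 129 and 125 with β-catenin siRNA, a log2 difference of -0.32 (edgeR adjusted p = 0.00126), and at 137, 137 and 136 in siCTL. Sdha and Sdhd differed by -0.22 and -0.18 (edgeR adjusted p = 0.00222 and 0.0381). Ndufb9 and Ndufa9, both accessory subunits of complex I, differed by -0.33 and -0.26 (edgeR adjusted p = 0.0015 and 0.00173). Uqcrb, a small complex III subunit, differed by -0.36 (edgeR adjusted p = 0.0052), but 43.4% of its 50-base sequences occur in other genes, among them Gm16089, and its level is uncertain. Of the genes counted in complex V, Atp5g2 differed by -0.25, Atp5c1, the γ subunit, by -0.20 and Atp5sl, placed there by name, by -0.82 (edgeR adjusted p = 0.00358, 0.0109 and 7.46e-05). In complex IV, Cox8a differed by -0.21 (edgeR adjusted p = 0.0325), with overlapping libraries. The calls named here held in all alternatives that tested the gene, except those of Cox8a and Sdhd, lost in 7 of 21 each, and that of Atp5c1, lost without siBcat replicate 1 (edgeR adjusted p = 0.0614).

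Related genes outside the name rule were compared in the same fit, where 14.3% of all genes were called higher and 10.7% lower with GSK126, and 17.7% and 17.5% with β-catenin siRNA. Of 10 other subunits and carriers, 4 rose and 0 fell with GSK126. With the length trend removed 2 were higher and 2 lower, with a median of 0.059 (all genes, 15.5% and 13.6%). The 4 called without that removal included Etfa (0.26 ± 0.063, edgeR adjusted p = 0.00924) and Etfb, which pass electrons from fat oxidation. The others were Cycs, cytochrome c (0.31 ± 0.078, edgeR adjusted p = 0.0117), and Cyc1 of complex III. The calls of Etfb, Cycs and Cyc1 were lost without siCTL replicate 1 or 2, with adjusted p of 0.0527 to 0.0693 in edgeR. With β-catenin siRNA, Cycs rose by 0.42 ± 0.078 (edgeR adjusted p = 0.00107) and Usmg5, an ATP synthase membrane protein, by 0.36 ± 0.098 (edgeR adjusted p = 0.0129), the latter lost without siCTL replicate 2 or siBcat replicate 2 (edgeR adjusted p = 0.051 and 0.0582). Cox4i1, the general form of complex IV subunit 4, was not called in either. Without GSK126 replicate 3 it was called in both, at 0.097 with GSK126 and 0.12 with β-catenin siRNA (edgeR adjusted p = 0.0461 and 0.0037). Cox7a2l of the same list was then called lower in both, at -0.13 and -0.18 (edgeR adjusted p = 0.0111 and 0.000161). In that setting 5 of the 10 were higher and 1 lower with GSK126 (all genes, 15.2% and 13.6%). With β-catenin siRNA it was 4 and 1 (all genes, 23.9% and 23.3%), and with the length trend removed 2 and 2 (all genes, 21.9% and 20.2%). Of 28 assembly factors tested, 4 rose and 1 fell with GSK126. Ttc19 fell (-0.26 ± 0.061, edgeR adjusted p = 0.00817) and was called in all alternatives. Ecsit, Lyrm7, Tmem70 and Foxred1 rose, and each lost the call without 1 or more of the siCTL replicates. With β-catenin siRNA 4 rose, among them Tmem70, an ATP synthase assembly factor (0.58 ± 0.063, edgeR adjusted p = 1.62e-05). Without GSK126 replicate 3 the counts were 2 and 3 with GSK126, and 4 and 1 with β-catenin siRNA. With the length trend removed they were 2 and 2, and 4 and 1. Of 12 regulators of mitochondrial genes, 2 rose with GSK126: Tfb1m, a mitochondrial rRNA methyltransferase (0.77 ± 0.16, edgeR adjusted p = 0.00341), and Ppargc1b, a coactivator of these genes (0.77 ± 0.21, edgeR adjusted p = 0.0198), the latter lost without siCTL replicate 1 or 3 or GSK126 replicate 1 or 2 (edgeR adjusted p = 0.0558 to 0.0819). With β-catenin siRNA Gabpa and Tfb2m rose and Nrf1 fell (edgeR adjusted p = 0.0186, 0.0262 and 0.049), and each lost the call without siCTL replicate 1 or siBcat replicate 2 or 3. The 13 subunits encoded in mitochondrial DNA were not analysed here.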

How the data were processed

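RNA was sequenced from 9 mouse MSC libraries in 3 groups of 3. The submitters' processing notes name TopHat2 2.0.6, HTSeq and bcl2fastq, and the build mm10; order, settings, annotation and strandedness: not given in the sources used here. For 23358 entries the authors deposited a raw count and an RPKM per library, the RPKM dividing the count by its CodingLength column, which may hold more than coding sequence. Another 6 per-sample columns, named for β-catenin siRNA with GSK126, match no sample and were not used. RPKM was used only for levels per length. Counts were tested with edgeR 4.0.16 in R 4.3.3 (filterByExpr by group, minimum count 10 and total 15, TMM, robust quasi-likelihood) over all 9 libraries without a block, with Benjamini-Hochberg adjustment over 13240 genes and a threshold of 0.05. CPM use TMM-scaled library sizes. The members and lists were chosen with earlier results of these data known; of the 21 alternatives, 3 were added after seeing the data. Named in each complex were up to 4 called genes with the smallest adjusted p per treatment and up to 3 between treatments. Also named were the highest and lowest tested gene per length in siCTL, isoforms and genes filtered out, and up to 3 genes of each companion list. Uqcrq, Ndufs8, Atp5s, Tmem70, Etfb, Cyc1, Cox4i1, Cox7a2l, Foxred1 and the Sdh genes not called were chosen after their values were seen. Gene positions are from GENCODE M21 and promoters from RefSeq (GRCm38.p6). Scripts were tested on simulated counts. DESeq2 1.42.0 was an alternative. The values of 1 gene that this rule takes in are not reported here.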

Additional observations from a re-analysis of the deposited data

How the results depend on the processing

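The alternatives were other scalings and filters, DESeq2, 2 groups at a time, a replicate block, leaving out each library, removal of the length trend and, added after seeing the data, its removal without GSK126 replicate 3, halved counts and removal of the GC trend. Removing the length trend left 19 calls with a median of 0.094 for GSK126 (all genes, 15.5% higher and 13.6% lower) and a median of 0.0096 for siBcat. Without GSK126 replicate 3 as well, GSK126 had 14 calls with 0.072 (all genes, 14.6% higher and 13.7% lower). For siBcat that was 26 calls with 0.0097 (all genes, 24.6% and 22.7%). A fit of the 2 groups alone gave 14 calls for GSK126 and 30 for siBcat (all genes, 10.7% and 23.1% higher, 8.35% and 23.9% lower). Library size alone gave 7 calls with a median of 0.074 for siBcat (all genes, 14.7% higher and 20.5% lower). For siBcat against GSK126 it gave 30 calls (all genes, 14.2% and 28.4%). Without 1 library, calls ran from 17 to 50 for GSK126, 5 to 34 for siBcat and 13 to 22 for siBcat against GSK126. Over all genes, shares called higher ran from 9.96 to 15.2%, 12.6 to 23.9% and 15.2 to 22.9%. Those called lower ran from 7.37 to 13.6%, 13.5 to 23.3% and 17.6 to 24.3%. Family medians ran from 0.13 to 0.29, 0.083 to 0.13 and -0.18 to -0.032. Length trend removed without GSK126 replicate 3, genes above 0 fell from 76 to 66 for GSK126 and from 66 to 42 for siBcat; 3 genes that had lain above 0 without a call were then called lower, Ndufa4 with GSK126 (-0.12), Atp5h (-0.11) and Ndufb9 (-0.097) with siBcat; the cause was not tested. Fitting the replicate block gave 28 calls for GSK126, 26 of them among the 36 (all genes, 13.5% higher and 10.2% lower). It gave 12 higher and 2 lower for siBcat (all genes, 17.2% and 16.9%). Between treatments it gave 2 higher and 15 lower (all genes, 18.8% and 21%). Libraries with the same number had correlations of -0.031 to 0.069, and not every library correlated best with its own number. No pairing by number was seen, but correlations this small cannot exclude one. Calls held in all alternatives that tested the gene for 11 genes with GSK126, 5 with siBcat and 11 between the treatments. The depth limits the isoforms with under 100 counts per group.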

Other observations

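Genes of glycolysis, the cytosolic route that ends in pyruvate and lactate, were also compared (all genes, 17.7% called higher and 17.5% lower with β-catenin siRNA, 14.3% and 10.7% with GSK126). Of 16 tested, 7 rose and 2 fell with β-catenin siRNA (median log2 fold change 0.18), and with GSK126 3 rose and 2 fell (median -0.014). Without GSK126 replicate 3, GSK126 gave 3 higher and 5 lower (median -0.060), and with the length trend removed 3 and 7 (median -0.084). For β-catenin siRNA these were 8 and 2, and 7 and 2. Of all genes, 15.2% and 13.6%, and 15.5% and 13.6%, were called in these settings with GSK126. With β-catenin siRNA the shares were 23.9% and 23.3%, and 21.9% and 20.2%. The difference between the counts of glycolysis genes in the 2 treatments was not tested. With β-catenin siRNA Pgam1 rose by 0.50 ± 0.044 (edgeR adjusted p = 2.63e-06), Hk2, a hexokinase, by 0.41 ± 0.062 (edgeR adjusted p = 0.000236) and Pgk1 by 0.35 ± 0.054 (edgeR adjusted p = 0.000272). With GSK126 Ldhb, a lactate dehydrogenase subunit, rose by 0.79 ± 0.066 (edgeR adjusted p = 3.58e-06), Pfkl by 0.42 ± 0.054 (edgeR adjusted p = 0.00012) and Hk2 by 0.40 ± 0.061 (edgeR adjusted p = 0.000452).

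Of 16 citric acid cycle genes, 4 rose and 2 fell with β-catenin siRNA (all genes, 17.7% higher and 17.5% lower), and 1 rose with GSK126 (14.3% and 10.7%). Without GSK126 replicate 3 it was 8 and 2 with β-catenin siRNA (all genes, 23.9% and 23.3%) and 3 and 0 with GSK126 (15.2% and 13.6%). With the length trend removed it was 6 and 3 (all genes, 21.9% and 20.2%), and 2 and 0 (15.5% and 13.6%). Mdh2, a malate dehydrogenase, rose by 0.40 ± 0.060 and Idh3a, an isocitrate dehydrogenase subunit, by 0.27 ± 0.050 (edgeR adjusted p = 0.000235 and 0.000954), while Pdha1 of the pyruvate dehydrogenase complex fell by 0.32 (edgeR adjusted p = 0.000235). With GSK126 Idh3a rose by 0.32 ± 0.050 (edgeR adjusted p = 0.000529). Of 7 outer membrane genes, 4 rose with β-catenin siRNA, led by the import pore gene Tomm40 (0.54 ± 0.068, edgeR adjusted p = 5.04e-05), which also rose with GSK126 (0.25 ± 0.068, edgeR adjusted p = 0.0161), though not without siCTL replicate 2 or 3 (edgeR adjusted p = 0.078 and 0.0639).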
